A study of Mus musculus with 6 samples.

Results

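The mitochondrial ribosomal protein genes are described here in stimulated natural regulatory T (nTreg) cells of Srsf1-knockout and wild-type mice. Members were the gene symbols of the count table that begin with Mrpl or Mrps followed by a digit, without pseudogene symbols and without symbols at 0 in all libraries. The rule gave 78 genes of 24982 symbols, and all 78 had enough reads to be tested among 11772 genes. In the KO group, floxed Srsf1 alleles (Srsf1-flox/flox) were deleted by dLck.Cre, a Cre recombinase under the distal Lck promoter, which is active in T cells. The WT group was labelled wild type, with no statement on Cre or floxed alleles. Both groups were B6.129 mice aged 8 to 10 weeks, with 3 mice each and 1 library per mouse. SRSF1 is a splicing factor that binds exons and helps the spliceosome choose splice sites. CD4+CD25+CD127lo cells were sorted from spleen and kept for 72 h in culture. The medium held antibodies to CD3 and to CD28 at 2 µg/ml each, and rIL-2 (recombinant interleukin-2) at 10 ng/ml, and the poly(A) RNA was then sequenced.

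The mitochondrial ribosome translates the few messenger RNAs of the mitochondrial genome, which encode core subunits of the respiratory chain and of ATP synthase. All of its proteins are made from nuclear genes, translated in the cytosol and imported into the matrix, where they assemble on RNAs transcribed inside the organelle. Many are counterparts of bacterial ribosomal proteins and the rest were added during mitochondrial evolution. T cells raise mitochondrial translation when they are activated. The symbols do not follow the structure exactly: the products of Mrps18a and Mrps30 sit in the large subunit, and Mrps36 (also Kgd4) encodes a subunit of the 2-oxoglutarate dehydrogenase complex. By structure, the 78 members comprised 51 large-subunit proteins, 26 small-subunit proteins and Mrps36.

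The libraries held 10183626 to 27562046 counted reads. Srsf1, the targeted gene, had 438, 812 and 787 CPM (counts scaled to library size with TMM factors) in KO replicates 1 to 3, against 1214, 1230 and 755 CPM in the libraries labelled WT replicates 1 to 3. The library labelled WT replicate 3 thus lay inside the KO range, and Srsf1 did not pass the test (log2 fold change -0.65, SE 0.32, edgeR adjusted p = 0.682). The counts do not separate the deleted exons from the rest of the gene. The list for Treg cells held 10 genes, among them the general T cell genes Cd4, Cd3e, Cd3g and Cd28, so its sum does not measure the share of Treg cells. Its summed CPM was 6452 to 10052 in KO and 6333 to 9581 in WT libraries. Much of this sum was Il2ra, with 3300, 4929 and 6880 CPM in KO against 5429, 4073 and 6566 CPM in WT libraries. Cd4, also in the list, had 425, 447 and 503 CPM in KO against 316, 290 and 238 CPM in WT libraries. Foxp3, the lineage factor of Treg cells, had 464, 357 and 413 CPM in KO against 160, 121 and 104 CPM in WT libraries. Both CD8 T cell markers listed (Cd8a and Cd8b1) summed to 38.9 to 60.5 CPM in KO and 193 to 269 CPM in WT libraries, and the part of these cells in the values below was not tested. The 5 B cell markers summed to at most 4.8 CPM in KO and 4.41 CPM in WT libraries. The 4 NK cell markers summed to 5.67 to 20.0 CPM in KO and 6.87 to 18.1 CPM in WT libraries. The 6 macrophage and monocyte markers in the table summed to 0.226 to 0.802 CPM in KO and 0.0452 to 0.287 CPM in WT libraries, with Csf1r and Lyz2 at 0.

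KO replicate 1 stood apart from the other libraries by the base composition of the transcripts. Over 11280 genes, the log2 CPM of KO replicate 1 minus the mean of the other 5 libraries correlated with the GC content of the transcript at r = 0.83. Over the 78 members the same correlation was 0.69, and 0.78 with the GC content of the coding sequence alone. In the other 5 libraries the members' correlations with coding GC content were -0.64 to -0.30. KO replicate 1 is part of the mean that each of these was set against, and against the mean of the other 4 without it they were -0.32 to 0.27. These are descriptions across genes of the same libraries. The members' coding sequences held 41.6% to 65.6% G and C, with a median of 53.5%. The stretches below come from the 2 members of lowest and the 2 of highest coding GC content among those with at least 100 counts in every library. Each is the centre 90 bases of the coding sequence in the GENCODE M21 transcript, with G and C in capitals.
Mrpl1: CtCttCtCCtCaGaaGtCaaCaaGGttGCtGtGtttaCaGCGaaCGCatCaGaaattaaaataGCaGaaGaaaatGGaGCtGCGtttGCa
Mrpl47: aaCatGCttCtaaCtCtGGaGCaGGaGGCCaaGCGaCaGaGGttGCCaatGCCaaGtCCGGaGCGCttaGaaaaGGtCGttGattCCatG
Mrps26: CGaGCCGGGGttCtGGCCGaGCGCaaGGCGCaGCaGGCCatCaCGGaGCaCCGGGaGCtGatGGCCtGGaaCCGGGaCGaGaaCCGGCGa
Mrpl34: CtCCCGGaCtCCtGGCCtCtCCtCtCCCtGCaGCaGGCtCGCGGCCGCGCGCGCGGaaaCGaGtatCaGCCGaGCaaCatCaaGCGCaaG

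The Mrpl1 stretch (coding bases 460 to 549, chromosome 5) held 42.2% G and C, with 41.6% in the whole coding sequence, and the level of Mrpl1 in KO replicate 1 was 0.226 times the mean of the other libraries. The Mrpl47 stretch (coding bases 334 to 423, chromosome 3) held 52.2%, more than the 45.0% of its whole coding sequence, and the gene was at 0.508 times the others. The Mrps26 stretch (coding bases 256 to 345, chromosome 2) held 71.1%, with 64.2% in the whole, and 2.48 times the level of the others. The Mrpl34 stretch (coding bases 94 to 183, chromosome 8) held 67.8%, with 65.6% in the whole, and 2.34 times the level of the others. The members farthest from the other libraries in KO replicate 1 were Mrpl1 at the low end and, among those with as many counts, Mrpl4 at the high end, with 3.38 times the others and a coding GC content of 60.0%. Among all members, KO replicate 1 was over 1.5 times the other libraries for 27 and under the inverse of that for 7. That is 34.6% and 8.97% of members, against 31.2% and 27.8% of all genes tested.

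**Figure D1:**
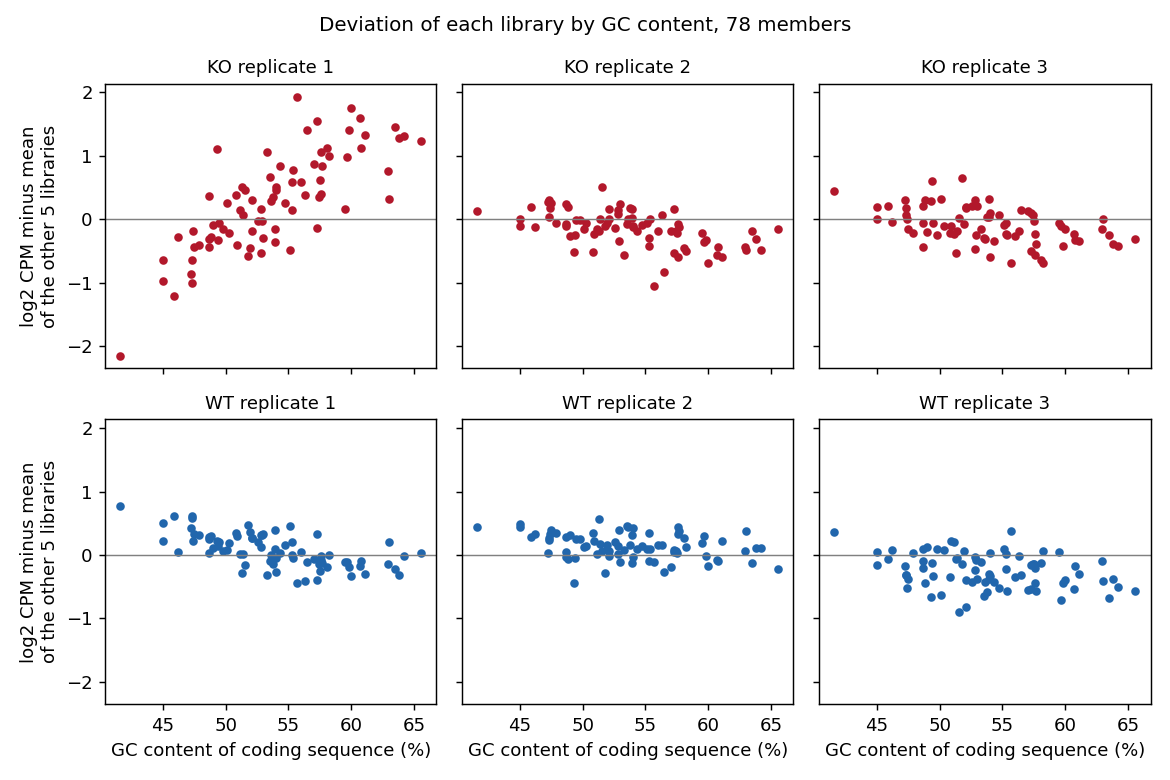
Each panel is 1 library and each point 1 of the 78 members, with the GC content of its coding sequence (%) on the x axis and its log2 CPM minus the mean of the other 5 libraries on the y axis. KO libraries are in the top row (red) and WT libraries in the bottom row (blue). In KO replicate 1 the points climb with GC content (r = 0.78), and in the other panels r is -0.64 to -0.30, where KO replicate 1 is part of the mean subtracted.

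No mitochondrial ribosomal protein gene passed the test for a difference between KO and WT cells. None of the 78 members was called at an adjusted p under 0.05 in edgeR's quasi-likelihood test, in which 0.017% of all genes tested were called (2 of 11772). None had an unadjusted p under 0.05 either, against 7.51% of all genes tested, and DESeq2 called 0 of the 78, against 0.977% of its genes (122 of 12490). The smallest adjusted p among members was 0.686 in edgeR. The fold changes lay between -0.62 (Mrpl1) and 0.79 (Mrpl4) on the log2 scale, with 45 members above and 33 below 0. Their median was 0.05, beside 0.02 over all genes tested. The 95% confidence interval lay within a 2-fold change in either direction for 56 of the 78 members, against 4832 of the 11772 genes tested. The intervals take in KO replicate 1, and their coverage under its deviation by GC content was not tested. For these 56 members a change larger than 2-fold was outside the interval. For the other members a 2-fold change remained inside it. Fewer cells of a type and less RNA per cell cannot be told apart in these bulk samples.

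Large- and small-subunit members had the same median. Of 51 large-subunit members 28 were above and 23 below 0, with a median log2 fold change of 0.05. Of 26 small-subunit members 16 were above and 10 below 0, with a median of 0.05 as well. Large-subunit proteins with a bacterial counterpart had a median of -0.05 (30 genes, 13 above 0) and those specific to mitochondria 0.11 (19 genes, 14 above 0). Small-subunit proteins with a bacterial counterpart had a median of 0.05 (16 genes, 11 above 0) and the mitochondria-specific ones 0.01 (10 genes, 5 above 0). The CPM of all members summed to 4153, 3637 and 3698 in KO replicates 1 to 3, against 4139, 4164 and 3303 in the libraries labelled WT replicates 1 to 3. The sums overlapped, with the lowest in the library labelled WT replicate 3.

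The members' values by library split along GC content. KO replicate 1 was the highest of the 6 libraries for 37 members (47.4%, against 36.6% of all genes tested) and the lowest for 19 (24.4%, against 34.8%). In the 26 members of lowest coding GC content (41.6% to 51.3%), KO replicate 1 deviated from the other libraries by a median of -0.30 on the log2 scale, and 5 of the 26 fold changes were above 0 with a median of -0.21. In the 26 of middle GC content (51.4% to 55.7%), the median deviation was 0.21 and the median log2 fold change 0.06, with 16 above 0. In the 26 of highest GC content (56.0% to 65.6%), the median deviation was 1.02 and the median log2 fold change 0.28, with 24 above 0. With KO replicate 1 left out, the median log2 fold changes of these 3 sets were -0.17, -0.07 and -0.14.

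**Figure D2:**
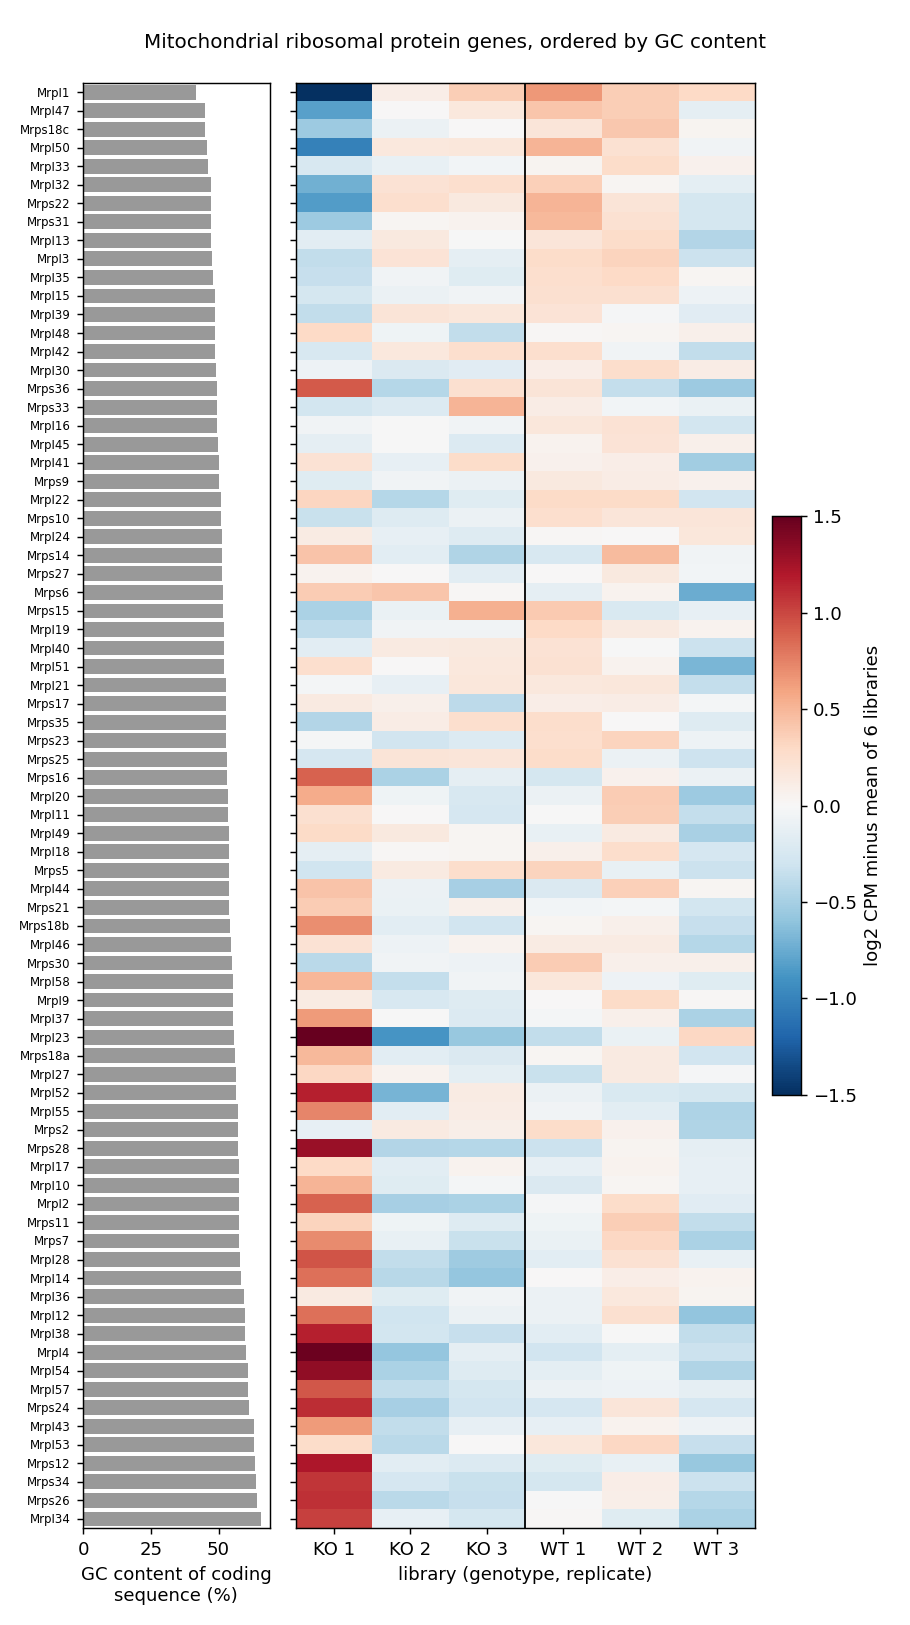
Rows are the 78 members ordered by the GC content of the coding sequence (grey bars, %), from low at the top to high at the bottom. Columns are the 3 KO and then the 3 WT libraries, and the colour is log2 CPM minus the member's mean over the 6 libraries (red above, blue below; values beyond 1.5 in either direction are drawn at the end of the scale). The column of KO replicate 1 turns blue at the top, with 15 of the 26 lowest-GC members at their lowest there, and red at the bottom, with 22 of the 26 highest-GC members at their highest.

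Without KO replicate 1 the direction of the members turned. Of the 78 members 52 were then below 0 (66.7%, against 53.7% of all genes tested in both fits), with a median log2 fold change of -0.14 beside -0.03 over all genes. None was called, where 0.025% of all genes were (3 of 11990). An unadjusted p under 0.05 was reached by 4 of the 78 members (Mrpl14, Mrpl2, Mrpl30 and Mrps23), all lower in KO. Over all genes it was reached by 10.4% in either direction and by 5.25% lower in KO. The members' share was not above either. Mrpl2, a protein near the catalytic centre of the large subunit, had 59.3, 22.8 and 23.2 CPM in KO replicates 1 to 3, against 31.9, 39.1 and 28.7 CPM in the libraries labelled WT replicates 1 to 3. KO replicates 2 and 3 lay below every WT library and KO replicate 1 above them. Mrpl14, another large-subunit protein with a bacterial counterpart, had 24.5, 10.3 and 9.22 CPM in KO against 13.8, 14.8 and 14.3 CPM in WT libraries, in the same arrangement. The edgeR log2 fold changes without KO replicate 1 were -0.53 for Mrpl2 and -0.55 for Mrpl14 (edgeR adjusted p = 0.433 for both), against 0.08 and 0.05 with all libraries.

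Taken singly, KO replicate 2 was below all WT libraries for 33 members (42.3%, against 30.2% of all genes tested) and above them for 2 (2.56%, against 24.8%). KO replicate 3 was below all WT libraries for 26 members (33.3%, against 27.7%) and above them for 10 (12.8%, against 25%). KO replicate 1 was below for 21 (26.9%, against 39.3%) and above for 39 (50%, against 41.5%). The library labelled WT replicate 3 was the lowest of all for 29 members (37.2%, against 16.8% of all genes tested). Leaving out both that library and KO replicate 1 put 61 of 78 members below 0, with a median log2 fold change of -0.20. Over all genes the median was 0.00. No member was called, where 80 genes (0.693%) were. By the members' median deviation, KO replicate 1 was the highest KO library (0.30) and the other the lowest WT library (-0.27). Leaving out both lowers the members' fold changes through the choice of libraries, which was made after seeing the data. In that fit of 2 against 2 libraries, 10 of the 78 members had an unadjusted p under 0.05, all lower in KO. Over all genes it was 14% in either direction and 5.55% lower in KO. The smallest edgeR adjusted p among the members was 0.155 (Mrps23, log2 fold change -0.53). When the counts of all 6 libraries were corrected for transcript GC content and length, 39 members were above and 39 below 0. None was called, where 0.16% of all genes were. The corrected log2 fold changes ran between -0.46 and 0.96, the highest being Mrpl57, at 0.33 without the correction. The transcript of Mrpl57 held 42.3% G and C and its coding sequence 60.8%. In the corrected fit 3 of the 78 members (Mrpl14, Mrps10 and Mrps23) had an unadjusted p under 0.05, all lower in KO. Over all genes it was 12.4% in either direction and 6.17% lower in KO. With KO replicate 2 left out in place of KO replicate 1, Mrpl4 and Mrpl52 had an unadjusted p under 0.05, higher in KO, against 7.6% of all genes in either direction and 5.7% higher in KO.

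**Figure D3:**
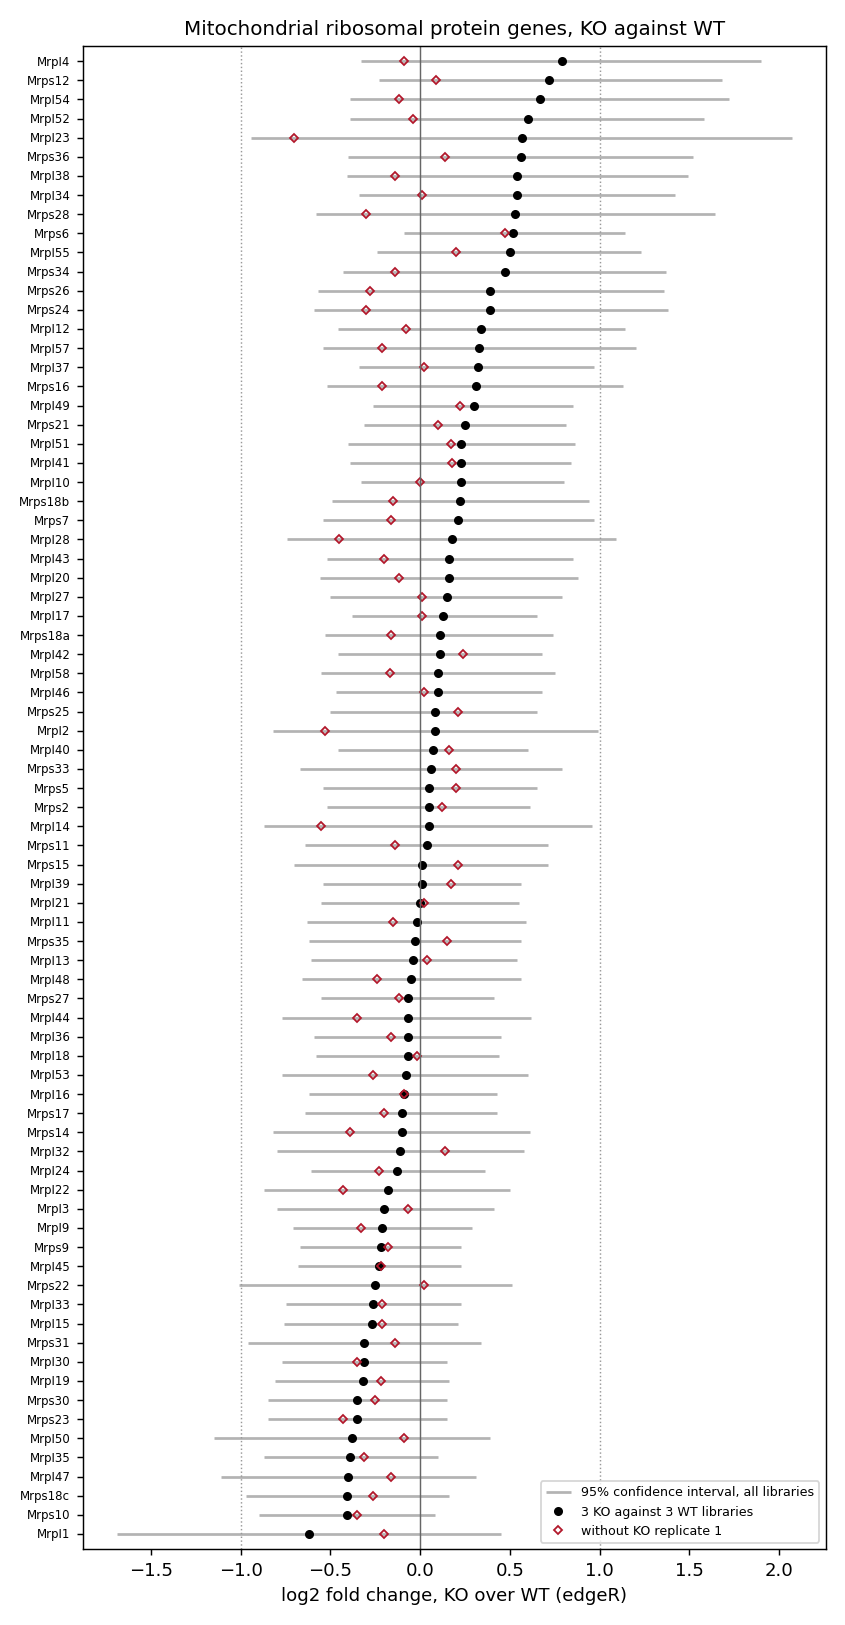
Each row is 1 member, ordered by its log2 fold change of KO over WT (x axis). Black points are the edgeR values over 3 KO and 3 WT libraries with their 95% confidence intervals (grey), red diamonds the values without KO replicate 1, and dotted lines mark 2-fold. The intervals of all 78 members include 0, the black points run between -0.62 and 0.79, and the diamonds of Mrpl4 (-0.09) and Mrps12 (0.09) lie far left of their black points.

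In 9 of the 78 members every KO library was below every WT library, which was so for 8.18% of all genes tested. In 0 members was every KO library above every WT library, against 7.48% of all genes tested. The 9 were Mrps10, Mrps18c, Mrpl35, Mrps30, Mrpl19, Mrpl30, Mrpl33, Mrpl45 and Mrps9, and 6 of them encode large-subunit proteins. Their log2 fold changes were -0.41 to -0.22, and -0.35 to -0.18 without KO replicate 1. Corrected for GC content and length they were -0.42 to -0.10. Mrpl35 was at -0.10 in place of -0.39 and Mrps30 at -0.11 in place of -0.35. That correction used whole transcripts, and Mrps30 had 44.2% G and C in its transcript against 55.1% in its coding sequence. KO replicate 1 was the lowest library for 7 of the 9, and their coding GC content was 45.0% to 55.1%. With FPKM the count was again 9, with Mrpl1 in the place of Mrpl45, against 6.7% of all genes, and 0 members were higher without overlap, against 6.33%. On log2(FPKM + 1) without a filter, limma gave 6 of the 78 members an unadjusted p under 0.05, all lower in KO and none called. These were Mrpl19, Mrpl30, Mrpl35, Mrps10, Mrps30 and Mrps9. Over all genes it was 6.8% in either direction and 3.4% lower in KO. With a filter at 1 FPKM, limma gave 0 members an unadjusted p under 0.05.

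Among small-subunit members, Mrps10, a counterpart of a bacterial protein in the head of the subunit, had 31.3, 34.5 and 37.2 CPM in KO replicates 1 to 3, against 47.2, 45.0 and 44.8 CPM in the libraries labelled WT replicates 1 to 3. The KO libraries were all lower and the groups lay apart by more than the range within either. Its log2 fold change was -0.41 (SE 0.21, edgeR adjusted p = 0.686). Mrps18c, the small-subunit member of the Mrps18 family with the bacterial position, had 26.3, 36.1 and 38.4 CPM in KO against 43.4, 50.7 and 39.5 CPM in WT libraries. The highest KO and the lowest WT value, both of replicate 3, were next to each other, and the log2 fold change was -0.41 (SE 0.25, edgeR adjusted p = 0.724), and -0.26 without KO replicate 1. Mrps9 had 64.0, 70.3 and 68.4 CPM in KO against 80.9, 78.8 and 75.9 CPM in WT libraries, with narrow ranges that did not meet. Mrps23, a mitochondria-specific protein, had 68.4, 56.7 and 59.9 CPM in KO against 82.8, 87.4 and 66.0 CPM in WT libraries. KO replicate 1 was above the library labelled WT replicate 3, so the groups overlapped, and its log2 fold change was -0.35 (SE 0.22, edgeR adjusted p = 0.725).

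Mrps6 had the smallest p of the members above 0. It encodes a small-subunit protein with a bacterial counterpart and had 78.4, 80.4 and 60.8 CPM in KO against 54.8, 62.4 and 35.7 CPM in WT libraries. KO replicate 3 lay just below the library labelled WT replicate 2, so the groups overlapped. The log2 fold change was 0.52 (SE 0.27, edgeR adjusted p = 0.686), 0.47 without KO replicate 1 and 0.29 with the library labelled WT replicate 3 left out as well. Mrps12, whose bacterial counterpart takes part in decoding accuracy, had 42.2, 16.3 and 15.8 CPM in KO against 16.0, 16.9 and 12.3 CPM in WT libraries. Only KO replicate 1 was outside the WT range on the high side, and the log2 fold change of 0.72 (SE 0.42, edgeR adjusted p = 0.716) was 0.09 without it.

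**Figure D4:**
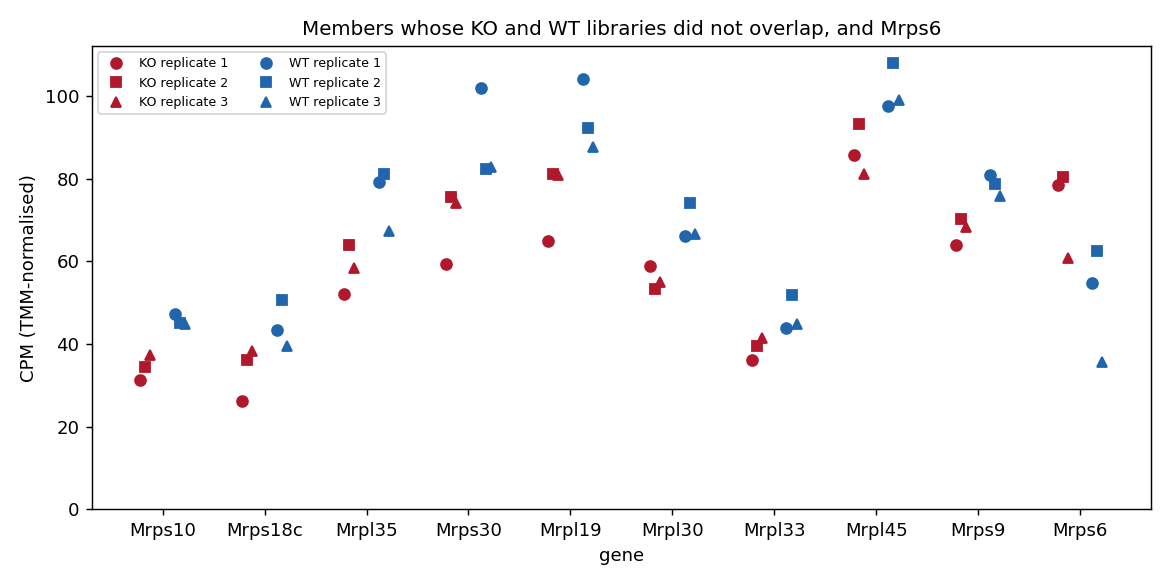
The 9 members whose KO libraries were all below the WT libraries, and Mrps6, with TMM-normalised CPM on the y axis from 0. Each symbol is 1 library (KO red and left, WT blue and right of each gene; circle, square and triangle for replicates 1, 2 and 3). The gap between the groups is narrow in Mrps18c, where 38.4 CPM in KO replicate 3 lies next to 39.5 CPM, the lowest WT value.

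Of the 30 large-subunit members with a bacterial counterpart 17 were below 0. Mrpl35 had 52.1, 64.0 and 58.3 CPM in KO against 79.1, 81.2 and 67.3 CPM in WT libraries, and the groups did not overlap (log2 fold change -0.39, SE 0.21, edgeR adjusted p = 0.711). Mrpl19 had 64.8, 81.0 and 80.9 CPM in KO against 104, 92.3 and 87.6 CPM in WT libraries (log2 fold change -0.32, SE 0.21, edgeR adjusted p = 0.736). Mrpl30 had 58.9, 53.3 and 55.0 CPM in KO against 66.2, 74.1 and 66.7 CPM in WT libraries (log2 fold change -0.31, SE 0.20, edgeR adjusted p = 0.735). Of these, Mrpl30 was the one in which KO replicate 1 was the highest KO library, and its log2 fold change was -0.35 without that library. Mrpl45, a mitochondria-specific protein at the tunnel exit that docks the ribosome to the inner membrane, had 85.7, 93.3 and 81.2 CPM in KO against 97.6, 108 and 99.1 CPM in WT libraries, with a gap smaller than the range within either group. Mrpl1, counterpart of the protein that forms a mobile stalk beside the exit site, had the lowest fold change of the 78 members, with 25.6, 95.2 and 115 CPM in KO against 139, 115 and 109 CPM in WT libraries. KO replicate 3 lay inside the WT range, and the log2 fold change of -0.62 (SE 0.47, edgeR adjusted p = 0.754) was -0.20 without KO replicate 1.

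The highest fold changes in the large subunit moved with KO replicate 1. Mrpl4, whose bacterial counterpart lines the tunnel through which the new protein leaves, had 78.6, 19.1 and 25.9 CPM in KO against 23.4, 25.7 and 22.7 CPM in WT libraries. Its log2 fold change was 0.79 (SE 0.49, edgeR adjusted p = 0.724) with all libraries and -0.09 without KO replicate 1. Mrpl54 had 59.6, 17.1 and 20.8 CPM in KO against 21.4, 22.7 and 17.4 CPM in WT libraries, and its log2 fold change was 0.67 (SE 0.46, edgeR adjusted p = 0.749) with and -0.12 without that library. In both genes KO replicate 2 was below the WT range, and KO replicate 3 was inside it in Mrpl54 and just above it in Mrpl4. Mrpl34 had 39.1, 17.6 and 16.0 CPM in KO against 19.5, 16.9 and 13.8 CPM in WT libraries (log2 fold change 0.54, SE 0.39, edgeR adjusted p = 0.753), and 0.01 without KO replicate 1. Mrpl55 had 24.4, 13.2 and 15.9 CPM in KO against 14.2, 13.2 and 10.7 CPM in WT libraries (log2 fold change 0.50, SE 0.32, edgeR adjusted p = 0.733), and 0.20 without that library. In Mrpl55, unlike in Mrpl34, KO replicate 3 was also above the WT range. Mrpl52, a mitochondria-specific protein, had 58.8, 16.1 and 28.4 CPM in KO against 24.5, 22.3 and 21.7 CPM in WT libraries (log2 fold change 0.60, SE 0.43, edgeR adjusted p = 0.753), and -0.04 without KO replicate 1. Its KO libraries lay on both sides of the WT range. Mrpl12, the stalk protein that recruits translation factors, had 152, 70.1 and 81.2 CPM in KO against 80.7, 102 and 57.0 CPM in WT libraries, with KO replicates 2 and 3 inside the WT range (log2 fold change 0.34, SE 0.35, edgeR adjusted p = 0.799; -0.08 without KO replicate 1).

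The members named for the small subunit but placed elsewhere, and their relatives, had fold changes of both signs. Mrps30 had 59.4, 75.6 and 74.1 CPM in KO against 102, 82.4 and 82.9 CPM in WT libraries, without overlap (log2 fold change -0.35, SE 0.22, edgeR adjusted p = 0.724). Mrps18a had 47.3, 30.2 and 28.9 CPM in KO against 34.4, 36.9 and 27.6 CPM in WT libraries (log2 fold change 0.11, SE 0.28, edgeR adjusted p = 0.909). Mrps18b, its paralog in the small subunit, had 60.8, 33.6 and 30.8 CPM in KO against 38.4, 39.6 and 29.5 CPM in WT libraries (log2 fold change 0.22, SE 0.31, edgeR adjusted p = 0.848). In Mrps18a and Mrps18b KO replicate 1 was the highest library, and without it their log2 fold changes were -0.16 and -0.15, while in Mrps18c it was the lowest. Their coding GC contents were 56.0%, 54.3% and 45.0% in the order a, b, c. Mrps36, of the 2-oxoglutarate dehydrogenase complex, had 11.9, 4.68 and 7.42 CPM in KO against 7.18, 4.90 and 4.31 CPM in WT libraries (log2 fold change 0.56, SE 0.42, edgeR adjusted p = 0.754). Its log2 fold change was 0.14 without KO replicate 1, 0.83 without KO replicate 2 and 0.03 in log2(FPKM + 1).

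Levels between genes were compared per length, as the FPKM values in the authors' second table. The median member had a mean of 36.0 FPKM over the 6 libraries, against 8.45 FPKM for the median of all genes tested, and 74 members were above that median of all genes. The mean levels spanned 28.3-fold, between 5.52 FPKM (Mrpl17) and 157 FPKM (Mrpl42). In CPM, which is not divided by length, Mrpl17 had means of 50.9 in KO and 46.4 in WT, against 98.0 and 90.8 for Mrpl42. Counts divided by FPKM implied lengths of 8862 bases for Mrpl17 and 599 for Mrpl42, so the span depends on the lengths used. Mrpl42, a mitochondria-specific large-subunit protein, had 149, 168 and 174 FPKM in KO against 172, 152 and 124 FPKM in WT libraries. Mrpl18, with a bacterial counterpart, followed with 134, 155 and 159 FPKM in KO against 159, 177 and 129 FPKM in WT libraries. Both overlapped between genotypes and with each other. Mrps21, a small-subunit protein, had 182, 117 and 141 FPKM in KO against 118, 128 and 110 FPKM in WT libraries. Mrpl33, a short large-subunit protein, had 105, 107 and 111 FPKM in KO against 114, 145 and 127 FPKM in WT libraries, all KO values being lower. Mrpl52 came next in the order with 217, 51.6 and 91.6 FPKM in KO against 76.9, 76.2 and 75.4 FPKM in WT libraries. Its WT values lay close together and its KO values on both sides of them.

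At the lower end, Mrpl17 had 7.52, 4.73 and 5.34 FPKM in KO against 4.74, 5.67 and 5.15 FPKM in WT libraries. Mrps25, of the small subunit, had 5.74, 6.60 and 6.34 FPKM in KO against 6.79, 5.58 and 4.93 FPKM in WT libraries. Mrpl57 had 12.3, 4.46 and 4.71 FPKM in KO against 5.25, 5.54 and 5.51 FPKM in WT libraries, with KO replicate 1 far above the rest. Mrpl48 had 7.78, 7.19 and 6.92 FPKM in KO against 7.21, 7.27 and 7.71 FPKM in WT libraries, the narrowest of these ranges. In the order of mean FPKM, 76 of the 77 pairs of neighbours had overlapping ranges over the 6 libraries, and Mrpl41 and Mrpl48 were the pair that did not. Apart from that pair, neighbours in the order did not differ beyond their spread.

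Counts and FPKM did not match the same transcript length for every member. Counts divided by FPKM gave an implied length of 67.7 bases for Mrpl23, 9.78% of its 692-base GENCODE transcript, and 14.6% for Mrps33, 16.9% for Mrps36, 23.6% for Mrps16 and 24.6% for Mrps26. Of all members, 14 had an implied length under 50% of the transcript, Mrps21 among them at 46.4%, and 1 over 200% (Mrpl41, 348%). The median over all members was 97.0%. Mrpl23, a large-subunit protein near the tunnel exit, had 149, 16 and 15 counts in KO against 38, 53 and 77 counts in WT libraries, and 69.4, 24.8 and 25.4 FPKM in KO against 28.0, 34.5 and 36.5 FPKM in WT libraries. In both tables KO replicate 1 was the highest and KO replicates 2 and 3 the lowest. The implied length was also under the coding length for Mrpl23 (438 coding bases), Mrps33 (162 against 318) and Mrps36 (119 against 306). It was above the coding length for Mrps16 (606 against 405) and Mrps26 (1052 against 600). For Mrpl41 and these 14 genes the counts, the FPKM or the transcript taken for comparison may be off. Which of these made the mismatch was not tested, and their levels are uncertain.

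The promoters were searched for 3 motifs that are known from genes of mitochondrial proteins: CCGGAAG, bound by ETS factors such as GABP, the NRF1 motif (GCGC, any base, then TGCGC), and AAGATGGC, bound by YY1. RefSeq windows of 250 bases before to 50 after the start (GRCm38.p6) were found for 69 of the 78 members and read on both strands. CCGGAAG was in 26 windows (37.7% of members, 21.4% of genes tested and 9.93% of all promoters). The NRF1 motif was in 13 (18.8%, against 12.2% and 5.19%), and AAGATGGC in 12 (17.4%, against 5.59% and 3.19%). At least 1 of the 3 was in 43 windows (62.3%, against 34.3% of genes tested and 16.4% of all promoters). The ETS and YY1 motifs share the letters AAG, and the form in which they overlap there was in 0 member windows. A match is a description of letters and not of binding. The 3 stretches below are the 100 bases before the start of a member with an ETS match and of a pair with the same NRF1 letters and fold changes of opposite sign, with the motif in capitals: Mrps18a (chr17:46110904-46111003, plus strand, CCGGAAG), Mrpl12 (chr11:120484537-120484636, plus strand, GCGCCTGCGC) and Mrpl30 (chr1:37890377-37890476, plus strand, GCGCCTGCGC).
Mrps18a: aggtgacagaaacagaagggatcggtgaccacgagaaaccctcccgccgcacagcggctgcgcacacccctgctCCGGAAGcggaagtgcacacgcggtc
Mrpl12: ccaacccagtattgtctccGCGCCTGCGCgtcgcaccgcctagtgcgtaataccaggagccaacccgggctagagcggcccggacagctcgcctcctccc
Mrpl30: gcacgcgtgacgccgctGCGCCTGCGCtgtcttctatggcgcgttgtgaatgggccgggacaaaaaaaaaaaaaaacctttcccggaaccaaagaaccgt

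Mrpl12 and Mrpl30 carried the same letters of the NRF1 motif and had log2 fold changes of 0.34 and -0.31 with all libraries. Neither was called, and without KO replicate 1 both were below 0, at -0.08 and -0.35. Their coding GC contents were 59.7% and 49.0%. Mrps18a had 0.11, with 56.0%.

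Lists of other genes of mitochondrial translation, transcription, genome maintenance and protein import held no called gene either. Of 5 mitoribosome subunits with other symbols, 14 translation factors, 21 assembly factors, 10 genes of mitochondrial transcription and genome maintenance, 17 mitochondrial tRNA synthetases and 25 import genes, edgeR called 0 in each list, against 0.017% of all genes tested, and 0 had an unadjusted p under 0.05, against 7.51%. The median log2 fold changes of these lists were -0.24, -0.23, 0.01, -0.09, -0.08 and 0.12 in the same order, beside 0.02 over all genes tested. Without KO replicate 1 they were -0.17, -0.19, -0.19, -0.15, -0.24 and -0.13, beside -0.03 over all genes. In that fit 5 of 5, 10 of 14, 16 of 21, 7 of 10, 15 of 17 and 19 of 25 genes of the 6 lists were below 0 in the same order, against 53.7% of all genes.

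Dap3, a GTP-binding small-subunit protein, had 85.0, 68.4 and 77.4 CPM in KO against 89.2, 106 and 107 CPM in WT libraries, without overlap (log2 fold change -0.39, SE 0.21, edgeR adjusted p = 0.708). Guf1, a translation factor of the elongation factor family, had 10.7, 28.9 and 31.2 CPM in KO against 43.5, 37.2 and 41.9 CPM in WT libraries, also without overlap (log2 fold change -0.80, SE 0.39, edgeR adjusted p = 0.676). Gfm2, which takes part in ribosome recycling, had 45.3, 54.0 and 54.1 CPM in KO against 67.5, 62.2 and 69.3 CPM in WT libraries (log2 fold change -0.38, SE 0.21, edgeR adjusted p = 0.712). All of these were lower in each KO library than in each WT library, and Guf1 was lowest in KO replicate 1, without which its log2 fold change was -0.45.

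Polrmt, the mitochondrial RNA polymerase, had 46.1, 11.4 and 14 CPM in KO against 10.6, 14 and 12.3 CPM in WT libraries. Its log2 fold change was 0.96 (SE 0.52, edgeR adjusted p = 0.706), and 0.04 without KO replicate 1. Hars2, the mitochondrial histidyl-tRNA synthetase, had 20.3, 18.8 and 20.8 CPM in KO against 24.9, 29.3 and 28.7 CPM in WT libraries, without overlap and with a fold change that KO replicate 1 hardly moved (log2 -0.47, SE 0.24, edgeR adjusted p = 0.684; -0.49 without it). Hspa9, the chaperone of the import motor, had 806, 1335 and 1373 CPM in KO against 1915, 1551 and 1445 CPM in WT libraries (log2 fold change -0.48, SE 0.28, edgeR adjusted p = 0.716), and -0.27 without KO replicate 1. Further genes of smallest p in these lists were Chchd1 and Aurkaip1 (subunits), Lrpprc (messenger RNA stability), Mpv17l2, Tfb1m and Mterf4 (assembly), Tfam and Mterf1a (transcription), Nars2 (a synthetase), and Timm21 and Tomm70a (import), with log2 fold changes between -0.59 (Mterf1a) and 0.65 (Mpv17l2). Without KO replicate 1 these were -0.17 for Mterf1a and 0.13 for Mpv17l2, and the others lay between -0.36 (Nars2) and -0.08 (Aurkaip1).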

How the data were processed

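The libraries of 3 KO and 3 WT mice were stranded mRNA libraries read as single ends, per the series' design text, which names the VIPER pipeline. The submitters' processing notes name mm9, and the file headers name STAR 2.4.2a. How genes were counted, with which annotation and whether by strand, is not stated in the labels or headers read here. Reads from genes that overlap, or lie antisense, therefore cannot be told apart. The source field calls the samples effector CD4 T cells. The titles and the sort call them nTreg cells, and the titles were followed.

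The authors deposited whole-number counts for 24982 symbols, not normalized, and a table of FPKM values for 24917 symbols, normalized by length and depth. Percent values of the alignment report deposited by the authors put uniquely mapped reads at 77.45% to 81.33%. The mismatch rate was highest in KO replicate 1, at 0.52%, against 0.32% to 0.43% in the other libraries. A date stood in place of a symbol in 26 entries (0.271% of counts), which counted toward library sizes and were not named.

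The main test was edgeR 4.0.16 (R 4.3.3) with TMM scaling, filterByExpr at its minimum count of 10, the two-sided quasi-likelihood F test and Benjamini-Hochberg adjustment over 11772 genes at a threshold of 0.05. DESeq2 1.42.0 and limma 3.58.1 were alternatives. The smallest count of a member in a library was 15. P-values and intervals measure the spread between the 3 mice of each genotype. On simulated counts of 11652 genes for KO against WT, edgeR recovered 6% of 2-fold and 70% of 4-fold changes, with 6 false calls. In the simulation 95.1% of intervals held the true value. Genes were simulated independently, without a deviation of a library by GC content such as that of KO replicate 1. The coverage therefore does not carry over to such a deviation. GC content and length came from GENCODE M21 transcripts (11280 genes, 95.8% of those tested) and promoters from RefSeq (GRCm38.p6).

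Members and lists were chosen with earlier results of these data known. Members named with values were the 8 of smallest p in each direction, the 5 of highest and 4 of lowest mean FPKM, the Mrps18 genes, Mrps30, Mrps36 and Mrpl12. Others, such as Mrps9, Mrpl45, Mrpl2, Mrpl14, Mrpl23, Mrpl47 and Mrps26, were named after their values were seen. From each further list the 3 genes of smallest p were named, apart from 1 that is not reported here. Alternatives covered scaling, filters, the test, the replicate numbers, each library left out, 2 against 2 libraries, and GC content and length.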

Additional observations from a re-analysis of the deposited data

How the results depend on the processing

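No member was called under any of the 19 alternatives, and the values of the 27 members named by rule kept their direction in 485 of 513 cases. Over all genes, the number called was 2 with edgeR and all libraries, 6 with no filter on low counts, 1 with limma voom, 0 with limma on log2(FPKM + 1) without a filter (1133 at an unadjusted p under 0.05), 122 with DESeq2, 18 with the GC content and length correction, 80 with 2 against 2 libraries, and 0 to 3 with 1 library left out. The replicate block called 1 gene and gave a median member fold change of 0.02. Deviations from the group means correlated at r = -0.36, 0.15 and 0.14 between same-numbered libraries (replicates 1, 2 and 3). Between libraries of different number r was -0.38 to 0.32. Deviations from a mean of 3 libraries are tied to each other, so the check cannot show or exclude a shared litter or batch. The labels do not say that the numbers mark pairs, and they were not taken as pairs. The median log2 fold change of the members was 0.05, between -0.14 (without KO replicate 1) and 0.09 with 1 library left out, and -0.20 with 2 against 2 libraries. The cause was not tested. The 2 against 2 fit and the correction were chosen after seeing the data.

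With 1 library left out, log2 fold changes ranged between -0.09 and 1.13 for Mrpl4, -0.12 and 0.97 for Mrpl54, -0.04 and 0.93 for Mrpl52, -0.21 and 0.55 for Mrpl57, -0.16 and 0.21 for Mrps18a, -0.15 and 0.37 for Mrps18b, -0.08 and 0.55 for Mrpl12, -0.06 and 0.24 for Mrps25, -0.04 and 0.27 for Mrpl42, -0.24 and 0.07 for Mrpl48, and -0.21 and 0.05 for Mrpl18. With 2 against 2 libraries the values that turned were Mrps12 -0.01, Mrpl4 -0.11, Mrpl54 -0.21, Mrpl34 -0.09, Mrpl52 -0.06, Mrpl17 -0.00165, Mrpl57 -0.21, Mrps18a -0.25, Mrps18b -0.25 and Mrpl12 -0.26. With the GC content and length correction Mrpl48 was 0.18 and Mrps18a -0.15, and with library size as the only scaling Mrpl48 was 0.0085. The count of members lower in KO without overlap was 8 to 9 across scalings and FPKM. Of 2-fold changes put into randomly picked genes, 6% were recovered on simulated counts, so most changes of that size were not called there with 3 libraries a group. The simulation held no deviation of a library by GC content and was not made for the members alone.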
